A study of Homo sapiens with 4 samples.

Results

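The chromosome 6, chromosome 1 and chromosome 17 windows of the human genome described here are stretches known for dense clusters of transfer RNA (tRNA) genes. They were chosen by position, with no threshold on any measured value. On hg19 they are chr6:26300001-26840000, chr6:28440001-28960000, chr1:161360001-161600000 and chr17:8020001-8130000. Cut into tiles of 1 kb, the 4 windows hold 1410 tiles (540, 520, 240 and 110 tiles in that order), of which 1182 had at least 1 read in some library, out of 2598309 such covered tiles in the genome. The series used ChIP-seq, sequencing of DNA pulled down with an antibody, in K562, an erythroid-like human leukaemia line. Its 4 libraries comprise 2 for DPF2 and 2 for histone H3 crotonylated at lysine 14 (H3K14cr). All came from wild-type cells, with no treatment named in the labels, and no control library was analysed here.

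tRNA genes are short genes transcribed by RNA polymerase III from promoter elements that lie inside the gene, where the factor TFIIIC binds and brings in TFIIIB. Active tRNA genes are known to sit in open chromatin, with few nucleosomes on the gene and acetylated nucleosomes beside it. DPF2 is a subunit of the BAF complexes, which move and evict nucleosomes with energy from ATP. Its paired PHD fingers bind the tail of histone H3 acylated at lysine 14, and crotonylation is one such acylation. Many tRNA genes exist in near-identical copies, so a short read from one copy may match several places. How such reads were placed is not given in the sources used here, and their part in the values below was not tested.

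Whether the windows hold dense tRNA genes was not checked on hg19, because no annotation of that build was given. In a RefSeq gene table of another build, GRCh38.p14, 155 of 465 tRNA genes (33.3%) lie on chromosome 6, 98 (21.1%) on chromosome 1 and 33 (7.1%) on chromosome 17. There, 21 tRNA genes stand in a row between ZNF322 and H2BC11 on chromosome 6, and 29 between SCAND3 and TRIM27. On chromosome 1, 27 stand in a row between CFAP126 and FCGR2A. On chromosome 17, 4 lie between HES7 and PER1 and 4 between AURKB and CTC1. Sites below are given by hg19 position alone, none is assigned to a gene, and no sequence is printed.

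The DPF2 libraries comprised 7787444 and 13317496 reads, the H3K14cr libraries 10880366 and 17369133. Wherever a pair of values follows for an antibody, replicate 1 comes before replicate 2. Levels are depth-scaled read counts (CPM) per 1 kb tile. Over the window tiles chi-square divided by its degrees of freedom came to 0.963 between the DPF2 libraries and 0.985 between the H3K14cr libraries, where 1 is sampling noise. Libraries of an antibody thus differed by less than the sampling noise and count as 1 sample here, with n = 1 for each antibody. Between libraries of different antibodies the value lay between 1.09 and 1.21. Intervals and tests below measure counting and technical spread, not the spread between cultures.

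Taken whole, the windows differed in read level, and the antibodies went together. The chromosome mean was taken over covered tiles, whereas levels of windows, blocks and flanks average all their tiles. Tiles with no read in any library thus pull a level down. They numbered 82 of 240 in the chromosome 1 window and 133 of 540 in the first chromosome 6 window. The chromosome 17 window lay above the mean of its chromosome in every library, at 1.62 and 1.71 times that mean for DPF2 and 1.73 and 1.69 times for H3K14cr. The second chromosome 6 window had 1.58 and 1.53 times the chromosome mean for DPF2, and 1.69 and 1.67 times for H3K14cr. The first chromosome 6 window had 1.24 and 1.20 times for DPF2, and 1.35 and 1.32 times for H3K14cr. The chromosome 1 window was below its chromosome mean in every library, at 0.548 and 0.547 times for DPF2 and 0.609 and 0.625 times for H3K14cr. The 500 kb beside the windows gave a local yardstick. Before the chromosome 1 window they stood at 1.58 and 1.57 times the chromosome mean for DPF2, and at 1.78 and 1.73 times for H3K14cr. After it they stood at 0.859 and 0.861 times for DPF2, and at 0.842 and 0.847 times for H3K14cr. Beside the chromosome 17 window they stood between 0.852 and 1.07 times over both sides and all 4 libraries, and beside the first chromosome 6 window between 0.985 and 1.72 times. Before the second chromosome 6 window the level was 1.27 and 1.29 times for DPF2, and 1.37 and 1.33 times for H3K14cr. After it the level was 0.566 and 0.597 times for DPF2, and 0.523 and 0.528 times for H3K14cr. DNA copy number and the share of reads that can be placed set such levels too, and their part was not tested.

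Relative to library totals, each window held somewhat less DPF2 than H3K14cr. The ratio of pooled DPF2 reads to pooled H3K14cr reads, scaled by library totals, was 0.919 over the 4 windows (exact binomial 95% interval 0.900 to 0.937, 16269 against 23709 reads). It was 0.919 in the first chromosome 6 window (0.889 to 0.951), 0.929 in the second (0.901 to 0.958), 0.869 on chromosome 1 (0.811 to 0.930) and 0.916 on chromosome 17 (0.868 to 0.968). The 4 intervals overlap one another. Over the whole genome the ratio is 1 by construction. The direction rests on that scaling: with median-of-ratios size factors taken from the enriched tiles of the genome, an alternative added after the data were seen, the ratios turned to 1.19, 1.21, 1.13 and 1.19 in the same order of windows. CPM and ratios below are on the scale of library totals unless another is named.

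**Figure D1:**
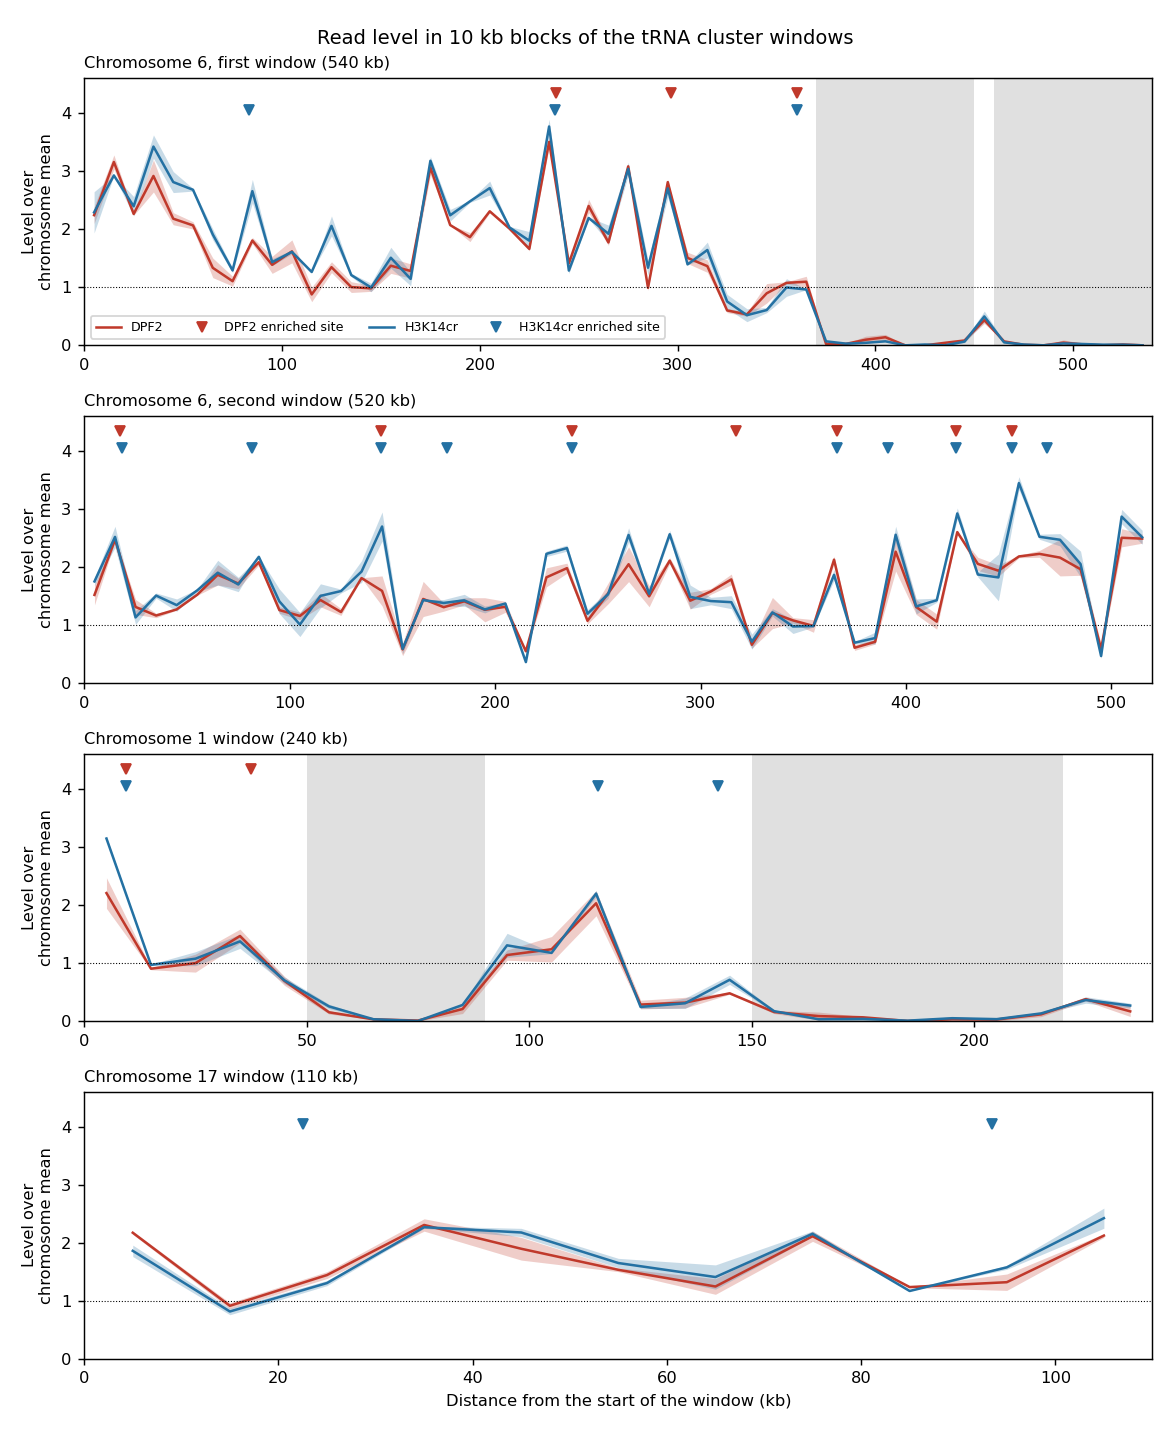
Mean read level of each 10 kb block of the 4 windows, in multiples of the chromosome mean, against distance from the window's start in kb; lines are the mean of the DPF2 libraries and of the H3K14cr libraries, bands span both libraries, triangles mark enriched sites and grey marks blocks under 0.3 times the chromosome mean in all 4 libraries. The lines of the antibodies run close together, and the grey stretches cover 27 of 141 blocks.

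The windows are a patchwork of raised stretches and stretches with almost no reads, as the plot of 10 kb blocks shows. A block was called dark when it held under 0.3 times the chromosome mean in all 4 libraries, and raised when it held at least 2 times that mean in both libraries of an antibody. These limits were chosen after the values were seen. Dark blocks numbered 27 of 141, and 3 of them held no read at all. Among the 138 covered blocks 24 were dark (17.4%), against 8.40% of covered blocks in the genome. All 27 lay in the first chromosome 6 window (16 blocks) and in the chromosome 1 window (11 blocks).

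The dark stretch chr6:26670001-26750000 held 17 and 16 DPF2 reads, and 12 and 22 H3K14cr reads, over 80 kb. The next, chr6:26760001-26840000, held 7 and 5 DPF2 reads, and 7 and 9 H3K14cr reads. Reads were thus near 0 for both antibodies over both stretches. On chromosome 1, chr1:161410001-161450000 held 13 and 30 DPF2 reads, and 33 and 46 H3K14cr reads, and chr1:161510001-161580000 held 22 and 25 DPF2 reads, and 28 and 35 H3K14cr reads. Tiles with no read in any library numbered 133 in the first chromosome 6 window (24.6% of its tiles), 82 on chromosome 1 (34.2%), 13 in the second chromosome 6 window (2.50%) and 0 on chromosome 17. Without the dark blocks the first chromosome 6 window stood at 1.75 and 1.70 times the chromosome mean for DPF2 and 1.91 and 1.86 times for H3K14cr. The chromosome 1 window then stood at 0.943 and 0.946 times for DPF2 and 1.04 and 1.08 times for H3K14cr. DNA that K562 lacks and sequence to which reads cannot be placed cannot be told apart here.

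Raised blocks numbered 26 for DPF2 (18.8% of the 138 covered blocks, against 5.81% of covered blocks in the genome) and 35 for H3K14cr (25.4%, against 7.66%). In all 4 libraries together 23 blocks were raised (16.7%, against 5.32%), 12 of them in the first chromosome 6 window, 8 in the second, 3 on chromosome 17 and 0 on chromosome 1. The longest raised stretch was chr6:26300001-26360000 for DPF2, 60 kb at 2.51 and 2.44 times the chromosome mean for DPF2 and 2.73 and 2.78 times for H3K14cr. It starts at the window's edge, so its full length was not measured. For H3K14cr the longest were chr6:26310001-26360000 and chr6:26470001-26520000, 50 kb each. The highest single block was chr6:26530001-26540000, at 3.60 and 3.41 times for DPF2 and 3.90 and 3.65 times for H3K14cr. Over the blocks raised in all 4 libraries the ratio of DPF2 to H3K14cr was 0.914 in the windows and 0.879 in the rest of the genome.

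Of the 26 blocks raised for DPF2 and the 35 raised for H3K14cr, 23 were raised for both. More blocks thus passed for H3K14cr alone than for DPF2 alone, and the blocks below are examples of each kind. At chr6:28580001-28590000 DPF2 had 1.85 and 1.33 times the chromosome mean, and H3K14cr had 2.95 and 2.45 times, with no overlap between the antibodies. At chr17:8020001-8030000 DPF2 had 2.20 and 2.15 times, and H3K14cr had 1.96 and 1.76 times. At chr6:28800001-28810000 DPF2 had 2.07 and 2.19 times, and H3K14cr had 1.96 and 1.77 times. The gap between the antibodies was small in the last 2 blocks and they passed by a narrow margin.

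Within this uneven ground, sharp sites were sought against the local level. The background of a tile was the chromosome mean or the mean of its surrounding 20 kb (10 tiles on each side), whichever was larger. Enrichment in a library meant at least 3-fold over that background and, in a one-sided Poisson test, an adjusted p no higher than 0.001 (Benjamini-Hochberg, over all covered tiles). For an antibody it had to pass in both libraries. Folds below are over that larger background.

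For DPF2, 12 tiles of the windows were enriched (1.02% of the 1182 covered tiles, against 0.221% of covered tiles in the genome). For H3K14cr there were 19 (1.61%, against 0.425%), and 8 tiles were enriched for both antibodies (0.677%, against 0.165%). Of the rest, 4 tiles passed for DPF2 alone and 11 for H3K14cr alone, 23 tiles in all. The second chromosome 6 window held 7 DPF2 tiles and 10 H3K14cr tiles, the first chromosome 6 window 3 and 4, the chromosome 1 window 2 and 3, and the chromosome 17 window 0 and 2. On whole chromosomes the DPF2 and H3K14cr shares were 0.256% and 0.428% on chromosome 6, 0.330% and 0.557% on chromosome 1, and 0.359% and 0.699% on chromosome 17. The enriched tiles held 4.38% of the windows' DPF2 reads and 6.99% of their H3K14cr reads, so most reads in the windows lay outside the sites. Called on the remaining library alone, DPF2 tiles numbered 21 without DPF2 replicate 2 (0.317% of covered tiles in the genome) and 18 without DPF2 replicate 1 (0.496%). H3K14cr tiles numbered 32 without H3K14cr replicate 1 (0.672% in the genome) and 30 without H3K14cr replicate 2 (0.573%). Over the genome too, more tiles passed under this looser rule. In a single random thinning of all libraries to the shallowest, 11 tiles were enriched for DPF2 (0.173% of covered tiles in the genome) and 9 for H3K14cr (0.311%). The order of the counts thus turned in the windows but not over the genome, and its cause was not tested. No tile of the windows was among the top 0.1% of tiles in all 4 libraries.

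**Figure D2:**
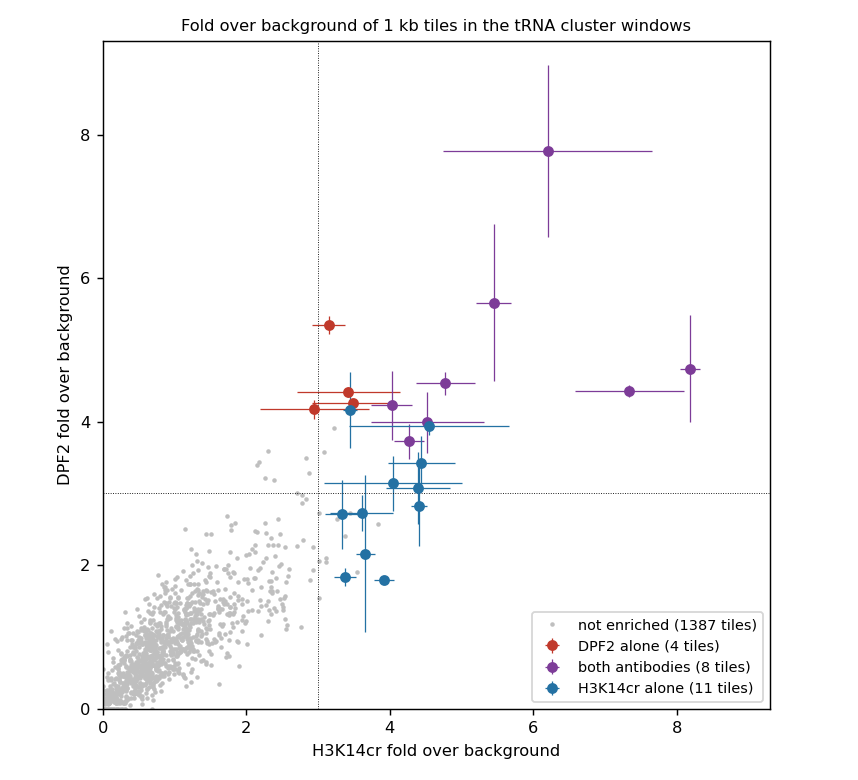
Fold of DPF2 (vertical axis) and of H3K14cr (horizontal axis) over the chromosome mean or the local 20 kb mean, whichever is larger, for each of the 1410 tiles of the windows; points are means of the libraries of an antibody, bars on the 23 enriched tiles span both libraries, and dotted lines mark the fold of 3. The 8 tiles enriched for both antibodies reach a DPF2 fold of 7.77 and an H3K14cr fold of 8.18, and the 4 tiles called for DPF2 alone lie between 2.95 and 3.48 on the H3K14cr axis.

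Touching enriched tiles were joined into sites, called narrow when 1 tile long, middle when 2 tiles long and broad from 3 tiles. All 12 DPF2 sites of the windows were narrow. That is near the share over the genome, where 4711 of 5214 DPF2 sites were narrow (90.4%), 491 middle and 12 broad. Of the 18 H3K14cr sites of the windows, 17 were narrow (94.4%) and 1 was middle. Over the genome 6610 of 8785 were narrow (75.2%), 2089 middle and 86 broad. These widths were not tested, and a raised tile counts in the local mean of its neighbours. With a tile's 2 neighbours also left out of its local mean, 11 DPF2 sites were narrow and 3 middle. For H3K14cr 19 were then narrow and 4 middle. With the libraries of an antibody summed, 4 DPF2 sites and 3 H3K14cr sites were middle. No broad site over the local mean was detected in the windows for DPF2 or for H3K14cr at this depth.

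The first 4 described are shared by both antibodies. At chr6:28806001-28807000, first in rank for DPF2, the level was 2.95 and 3.91 CPM for DPF2 and 3.13 and 2.07 CPM for H3K14cr. The fold was 6.57 and 8.97 for DPF2, and 7.66 and 4.74 for H3K14cr. The antibodies' levels overlap here, and the pooled ratio of DPF2 to H3K14cr was 1.43 (1.02 to 2.02).

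At chr6:28891001-28892000 the level was 3.21 and 3.08 CPM for DPF2 and 6.25 and 5.76 CPM for H3K14cr, the highest H3K14cr level of the 23 enriched tiles. Its fold was 4.51 and 4.34 for DPF2, and 8.10 and 6.58 for H3K14cr. H3K14cr lay above DPF2 in both libraries, with a pooled ratio of 0.526 (0.389 to 0.703, 66 against 168 reads).

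At chr6:28677001-28678000 the level was 2.44 and 2.78 CPM for DPF2 and 4.32 and 4.61 CPM for H3K14cr. This site had the highest H3K14cr fold over the larger of the 2 backgrounds, 8.32 and 8.04, with 4.0 and 5.48 for DPF2. Here too the libraries of the antibodies did not overlap in level, and the ratio was 0.590 (0.423 to 0.814).

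At chr6:28584001-28585000 the level was 3.08 and 1.95 CPM for DPF2 and 3.49 and 3.45 CPM for H3K14cr. The fold was 6.76 and 4.56 for DPF2, and 5.21 and 5.69 for H3K14cr. The DPF2 libraries lie apart at this site. H3K14cr lay above DPF2 in level without overlap, with a ratio of 0.683 (0.476 to 0.970), while the fold ranges of the antibodies overlap.

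In the first chromosome 6 window the shared sites stood in unlike surroundings. At chr6:26660001-26661000, 9 kb before the first dark stretch, the level was 1.93 and 1.80 CPM for DPF2 and 2.12 and 1.79 CPM for H3K14cr, with folds of 4.70 and 4.38 for DPF2 and 5.18 and 4.37 for H3K14cr. The antibodies overlapped in level and in fold. At chr6:26538001-26539000, inside the highest 10 kb block, the level was 3.21 and 3.68 CPM for DPF2 and 3.40 and 4.43 CPM for H3K14cr. Its folds over that raised surrounding were 3.57 and 4.41 for DPF2, and 3.74 and 5.31 for H3K14cr. H3K14cr also passed in the tile before it, so that chr6:26537001-26539000 was the one middle site of the windows.

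The other shared sites were chr6:28864001-28865000 and chr1:161369001-161370000. At chr6:28864001-28865000 the level was 3.21 and 2.63 CPM for DPF2 and 3.49 and 3.51 CPM for H3K14cr, with folds of 3.97 and 3.48 for DPF2 and 4.06 and 4.47 for H3K14cr. The chromosome 1 site had 2.70 and 3.60 CPM for DPF2 and 4.32 and 3.86 CPM for H3K14cr, with folds of 3.75 and 4.71 for DPF2 and 4.31 and 3.74 for H3K14cr. H3K14cr was higher in CPM in either library at both sites, while the folds of the antibodies overlapped on chromosome 1. The order in level rested on scaling by library totals: with median-of-ratios size factors the limma difference, DPF2 minus H3K14cr, was 0.09 on the log2 scale at chr6:28864001-28865000 and -0.01 at chr1:161369001-161370000.

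The 4 tiles that passed for DPF2 alone were not free of H3K14cr. Their mean H3K14cr fold lay between 2.95 and 3.48, beside 4.17 to 5.34 for DPF2. At chr6:28757001-28758000, second in rank for DPF2, the level was 2.31 and 2.25 CPM for DPF2 and 1.38 and 1.27 CPM for H3K14cr. The fold was 5.22 and 5.47 for DPF2, against 3.38 and 2.91 for H3K14cr, with no overlap. Its ratio of 1.74 (1.11 to 2.74, 48 against 37 reads) was the highest of the 23 tiles.

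At chr6:26596001-26597000 the level was 2.70 and 3.15 CPM for DPF2 and 2.76 and 1.61 CPM for H3K14cr. Its folds were 4.04 and 4.31 for DPF2 against 3.70 and 2.19 for H3K14cr, and the ratio was 1.45 (1.00 to 2.11). On chromosome 1, chr1:161397001-161398000 had 2.18 and 2.25 CPM for DPF2 and 2.12 and 1.38 CPM for H3K14cr, with folds of 4.34 and 4.49 against 4.14 and 2.70. It was the highest DPF2 site of that window, and its ratio was 1.34 (0.874 to 2.05). In these tiles the H3K14cr libraries lay further apart than the DPF2 libraries.

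In one place the calls for the antibodies fell in neighbouring tiles. The tile chr6:28457001-28458000 had 3.34 and 2.93 CPM for DPF2 and 2.85 and 2.25 CPM for H3K14cr, with a ratio of 1.24 (0.873 to 1.77). The tile chr6:28458001-28459000 passed for H3K14cr alone, with 1.54 and 1.43 CPM for DPF2 and 2.48 and 2.36 CPM for H3K14cr, and a ratio of 0.610 (0.386 to 0.946). DPF2 levels in the 2 tiles did not overlap, whereas H3K14cr levels did. The first tile passed for H3K14cr in replicate 1 and missed in replicate 2 by its fold alone, 2.91 against the limit of 3. The H3K14cr calls thus divided these tiles by a narrow margin.

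The 11 tiles that passed for H3K14cr alone had a mean DPF2 fold between 1.79 and 4.16, beside 3.33 to 4.54 for H3K14cr. At chr1:161502001-161503000, just before a dark stretch, the level was 0.897 and 0.900 CPM for DPF2 and 1.93 and 2.07 CPM for H3K14cr. The chromosome mean was the larger background here, and over it the DPF2 fold was 1.79 and 1.80, against 3.78 and 4.06 for H3K14cr. Over the sparse local 20 kb alone the folds were 4.52 and 5.71 for DPF2 and 12.7 and 9.35 for H3K14cr, the highest local H3K14cr folds of the 23 tiles. The ratio of 0.446 (0.251 to 0.761, 19 against 57 reads) was the lowest of the 23 tiles. At chr6:28831001-28832000 DPF2 had 2.05 and 1.13 CPM and H3K14cr had 2.58 and 2.53 CPM, with a ratio of 0.576 (0.366 to 0.890). At chr6:26383001-26384000 DPF2 had 1.41 and 1.65 CPM and H3K14cr had 2.30 and 2.99 CPM, with a ratio of 0.574 (0.370 to 0.873). In all 3 tiles H3K14cr lay above DPF2 without overlap.

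The highest H3K14cr site of the chromosome 1 window by fold was chr1:161475001-161476000, with 2.05 and 2.33 CPM for DPF2 and 2.67 and 2.99 CPM for H3K14cr. Its folds were 3.05 and 3.80 for DPF2 and 3.97 and 4.91 for H3K14cr. On chromosome 17 the highest was chr17:8113001-8114000, with 1.67 and 2.33 CPM for DPF2 and 3.59 and 2.82 CPM for H3K14cr, and folds of 2.57 and 3.58 for DPF2 and 4.85 and 3.95 for H3K14cr. The other chromosome 17 site, chr17:8042001-8043000, had 2.05 and 2.63 CPM for DPF2 and 2.02 and 2.13 CPM for H3K14cr. There the DPF2 fold, 3.63 and 4.69, was no lower than the H3K14cr fold, 3.34 and 3.54, and DPF2 missed the call by its adjusted p in replicate 1 (0.00368, one-sided Poisson test). It passed in DPF2 replicate 2, so at this tile the missing call turned on the shallowest library.

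Tiles near the limits show how fine the line was. Just inside for DPF2 were chr6:28864001-28865000, with 3.48 in the lower library, and chr6:26538001-26539000, with 3.57. Just outside were chr6:28521001-28522000, with 3.82 in the lower library and an adjusted p of 0.00129 there by the one-sided Poisson test, and the chromosome 17 tile with 3.63. For H3K14cr, chr6:26537001-26538000 passed with 3.08 in the lower library and chr6:28908001-28909000 with 3.10. The tiles chr6:26659001-26660000, with 3.38, and chr6:26458001-26459000, with 3.33, missed by their adjusted p of 0.00679 and 0.00303 in H3K14cr replicate 1 (one-sided Poisson test). Over the 1099 covered tiles outside dark blocks the median fold was 0.921 for DPF2 and 0.839 for H3K14cr. Of these tiles 61 for DPF2 and 95 for H3K14cr reached 2-fold in both libraries. The share of such tiles over the genome was not counted, so these counts describe the windows alone.

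**Figure D3:**
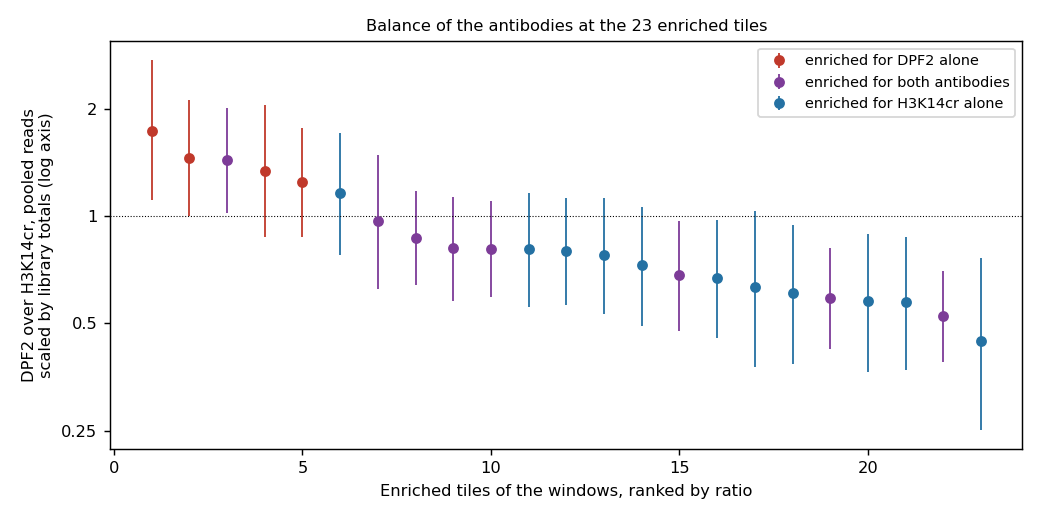
Ratio of DPF2 to H3K14cr pooled reads, scaled by library totals, at each of the 23 enriched tiles, on a log axis and ranked; bars are exact binomial 95% intervals and colours give the antibody for which the tile passed. Tiles called for DPF2 alone lie between 1.24 and 1.74, shared tiles between 0.526 and 1.43, and tiles called for H3K14cr alone between 0.446 and 1.16.

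The balance between the antibodies was then tested tile by tile, as the plot of ratios shows. All 23 enriched tiles entered a limma fit on log2(CPM + 0.5) over the 12488 tiles of the genome that were enriched for either antibody. These tiles had been picked by the levels of the same libraries, which fixes part of their differences. By limma with Benjamini-Hochberg adjustment, 1 of 23 tiles was higher in DPF2 (4.22% of the 12488 tiles were) and 8 were higher in H3K14cr (31.1% were). The median difference, DPF2 minus H3K14cr, was -0.31 on the log2 scale in the windows and -0.33 over the 12488 tiles, both towards H3K14cr. Enriched tiles together had a ratio of DPF2 to H3K14cr of 0.819 in the windows and 0.811 in the rest of the genome.

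The tile higher in DPF2 was chr6:28757001-28758000, with a difference of 0.61 on the log2 scale (SE 0.235, adjusted p 0.0361 by limma). Among those higher in H3K14cr, the difference was -0.83 at chr6:28891001-28892000 (SE 0.174, adjusted p 0.000167), -0.68 at chr6:28677001-28678000 (SE 0.188, adjusted p 0.00401) and -0.84 at chr1:161502001-161503000 (SE 0.243, adjusted p 0.0057), all by limma. The other 5 were chr6:26383001-26384000, chr17:8113001-8114000, chr6:28616001-28617000, chr6:28831001-28832000 and chr6:28458001-28459000, between -0.56 and -0.67 with adjusted p between 0.0277 and 0.0498 by limma.

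These counts rest on how the libraries are scaled. With median-of-ratios size factors in place of library totals, the median over the 12488 tiles moved to -0.02 and that of the windows to 0.01, and 6 of the 23 tiles changed sign. By limma 4 tiles were then higher in DPF2 and 1, chr6:28891001-28892000, was higher in H3K14cr. Over the genome 1127 of the 12488 tiles were then higher in DPF2 and 667 in H3K14cr, so the order of the counts turned there too. Those higher in DPF2 were chr6:28757001-28758000 (0.90), chr6:26596001-26597000 (0.70), chr6:28806001-28807000 (0.68) and chr6:28457001-28458000 (0.58), on the log2 scale. Under either scaling chr6:28757001-28758000 was called for DPF2 and chr6:28891001-28892000 for H3K14cr. Without H3K14cr replicate 1, or without H3K14cr replicate 2, 0 tiles were higher in DPF2 and 1 was higher in H3K14cr.

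**Figure D4:**
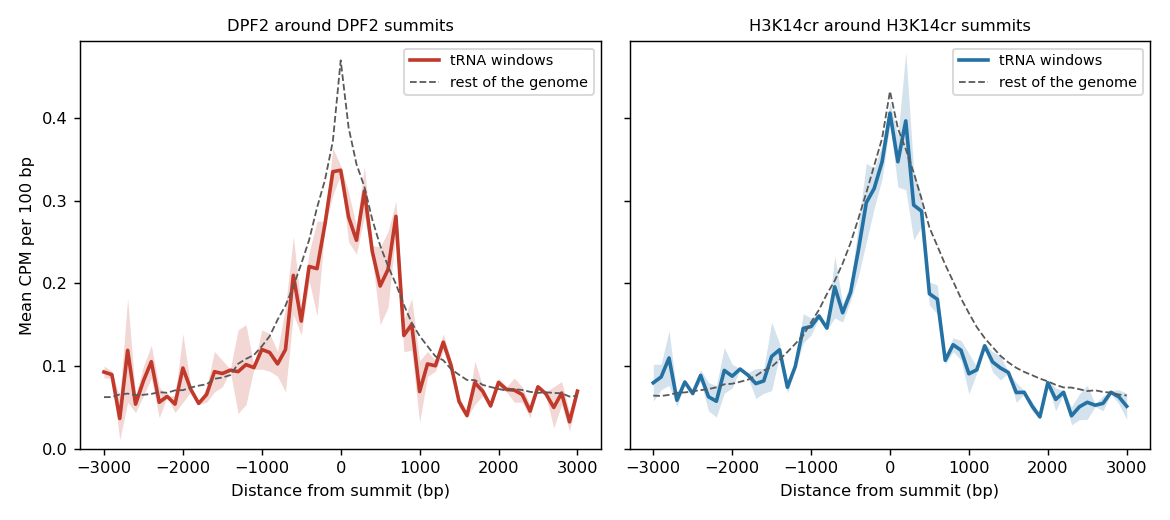
Mean CPM per 100 bp against distance in bp from the summit, for DPF2 around its sites (left) and H3K14cr around its sites (right); solid lines are the sites of the windows, bands span both libraries and dashed lines are sites in the rest of the genome. Each summit was found in one library and the values taken from the other, and the DPF2 profile of the windows is uneven, with summits 4.51 and 4.76 times above the flanks.

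The shape of the sites was read from 100 bp bins, with the summit found in one library and the reads counted in the other library of that antibody. Around the 12 DPF2 sites the mean profile, drawn in the plot around summits, was 1293 bp wide midway between summit and flanks with summits from replicate 1, and 789 bp wide with summits from replicate 2. Over 5202 DPF2 sites elsewhere it was 1031 and 956 bp wide. The DPF2 summit stood 4.51 and 4.76 times above its flanks in the windows, and 5.86 and 6.36 times elsewhere. Around the 18 H3K14cr sites the profile was 998 and 900 bp wide, against 1254 and 1178 bp over 8767 sites elsewhere. The H3K14cr summit stood 5.61 and 5.25 times above its flanks in the windows, and 5.57 and 5.82 times elsewhere. The DPF2 widths of the windows span those elsewhere, and with 12 and 18 sites no test was made.

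Site by site, the 500 bp around the summit held a median of 29.8% of DPF2 reads within 3 kb in the windows (18.5% to 35.8% over 12 sites), against 29.0% elsewhere. Flat coverage gives 16.7%, but every site had to stand at least 3-fold over its background in both libraries. A share above 16.7% was thus largely set by the call. For H3K14cr the median was 33.1% in the windows (22.7% to 43.5% over 18 sites) and 28.0% elsewhere, with an interquartile range of 23.9% to 33.3% elsewhere. The most concentrated site was chr6:26660001-26661000, where H3K14cr had 43.5% (exact binomial 95% interval 34.0% to 53.4%) and DPF2 had 35.6% (24.7% to 47.7%). The flattest DPF2 site was chr6:26596001-26597000, with 18.5% (12.7% to 25.4%), close to flat coverage. At chr6:28677001-28678000 the DPF2 share had an interval of 12.8% to 28.9%, and the H3K14cr share one of 29.8% to 43.9%, each around its own summit. Around the H3K14cr summit of this site the DPF2 share was 29.0%, and around the DPF2 summit the H3K14cr share was 32.8%. How far the shares differed thus depended on which summit was used. At chr6:28757001-28758000 DPF2 had 35.8% (25.4% to 47.2%).

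Broad sites appeared once the local mean was dropped. Against the chromosome mean alone, 42 tiles of the windows were enriched for DPF2 (3.55%, against 1.11% of covered tiles in the genome) and 100 for H3K14cr (8.46%, against 2.12%). They formed 33 DPF2 sites, of which 26 were narrow, 5 middle and 2 broad (6.06%, against 10.1% of DPF2 sites in the genome). They formed 66 H3K14cr sites, of which 41 were narrow, 20 middle and 5 broad (7.58%, against 20.3%). The longest site of the windows was 3 kb for DPF2 and 6 kb for H3K14cr, against 60 kb and 120 kb in the genome.

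The broad DPF2 sites were chr6:26595001-26598000, at 5.85 and 5.96 times the chromosome mean for DPF2 and 5.86 and 5.12 times for H3K14cr, and chr17:8055001-8058000, at 3.93 and 3.62 times for DPF2 and 3.54 and 3.64 times for H3K14cr. At chr6:26595001-26598000 1 of its 3 tiles also passed over the local mean, whereas on chromosome 17 0 of 3 did. In multiples of the chromosome mean the antibodies overlapped at both. In CPM scaled by library totals they overlapped on chromosome 17. At chr6:26595001-26598000 DPF2 then lay barely above, with 2.396 and 2.452 CPM against 2.392 and 2.092 for H3K14cr. With median-of-ratios size factors DPF2 lay above at both. The means were then 2.71 and 2.81 CPM against 2.07 and 1.86 on chromosome 6, and 2.52 and 2.32 against 1.86 and 1.94 on chromosome 17.

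Of the broad H3K14cr sites, chr6:26474001-26480000 was the longest at 6 kb, with 3.60 and 3.77 times the chromosome mean for DPF2 and 4.32 and 4.34 times for H3K14cr. At chr6:26595001-26599000, 4 kb long and around the first DPF2 site, the level was 5.01 and 5.10 times for DPF2 and 5.52 and 4.61 times for H3K14cr. At chr6:26537001-26540000 it was 6.37 and 6.08 times for DPF2 and 7.81 and 6.99 times for H3K14cr, the highest of the broad sites. On chromosome 17, chr17:8091001-8094000 had 3.48 and 2.99 times for DPF2 and 3.80 and 3.54 times for H3K14cr, and chr17:8125001-8128000 had 3.40 and 3.53 times for DPF2 and 4.51 and 3.70 times for H3K14cr. In multiples of the chromosome mean, and in CPM scaled by library totals, H3K14cr lay above DPF2 without overlap in 4 of these 5 sites, the exception being chr6:26595001-26599000. With median-of-ratios size factors it did so in 0 of 5, DPF2 lay above in 3 and the antibodies overlapped in 2. At chr6:26474001-26480000 the mean was then 1.67 and 1.78 CPM for DPF2 and 1.53 and 1.58 CPM for H3K14cr.

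What every window held depended on the background. Over the local mean the chromosome 17 window held 0 DPF2 sites and 2 H3K14cr sites, and over the chromosome mean 5 and 7. In the first chromosome 6 window enriched tiles rose from 3 to 14 for DPF2 and from 4 to 46 for H3K14cr. In the second they rose from 7 to 18 for DPF2 and from 10 to 35 for H3K14cr. On chromosome 1 they rose from 2 to 3 for DPF2 and from 3 to 6 for H3K14cr. In the chromosome 17 window 4 of 11 blocks were raised for DPF2 and 4 of 11 for H3K14cr. The second chromosome 6 window held 5 of the 8 tiles enriched for both antibodies over the local mean, and no broad site under either background.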

How the data were processed

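The deposited files give signal per 100 bp bin, scaled by the authors to a library of 10000000 reads, as read from the values. Bowtie2, with no version, and the builds mm9 and hg19 are named in the submitters' processing notes. Coordinates were read as hg19. How duplicates were treated, which mapping filters applied and what made the bins is not given in the sources used here. Dividing by the value of 1 read gave whole reads within 0.005 for all listed values (100%), recovered from the deposited signal. No bin held more than 187 reads.

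Bins were placed by midpoint into 1 kb tiles. Groups and replicate numbers came from the titles, and whether libraries came from separate cultures is not stated. Enriched tiles, sites and blocks are defined with the results. Differences were tested with limma 3.58.1 (trend) on log2(CPM + 0.5) over enriched tiles averaging 10 reads or more, at an adjusted p of at most 0.05. That scale understates changes of low tiles. edgeR 4.0.16, other backgrounds, folds, tile sizes and grids, summed and thinned libraries, pseudocounts, scalings, leaving out each library and a block for the replicate number were alternatives. The signal files had been planned to be tested on reads if whole reads could be recovered, and this was done.

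Sites named in the text were, for each antibody, the 8 of highest fold in the lower library and the highest of each window, every broad site, the 5 tiles of highest and the 5 of lowest ratio among enriched tiles with at least 40 pooled reads, and tiles next to the limits. The shared sites beyond those ranks, the tile beside chr6:28457001-28458000, the tiles passing limma and the 10 kb blocks were added after their values were seen. The windows and rules were chosen with earlier results of these data known. Intervals cover counting error only, since without molecular identifiers reads may repeat a molecule. Software was R 4.3.3, Python 3.11.15, scipy 1.17.1, pandas 2.3.3, numpy 2.4.6 and matplotlib 3.10.9. The calling and testing scripts were tested on simulated data, where many tiles near the fold limit were missed, so a tile that was not called is not shown to lack enrichment.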

Additional observations from a re-analysis of the deposited data

How the results depend on the processing

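Of 208 values under alternative settings, 152 stayed close to the value reported and 52 moved. The other 4 turned round: with median-of-ratios size factors, added after the data were seen, the window ratios were 1.19 and 1.21 on chromosome 6, 1.13 on chromosome 1 and 1.19 on chromosome 17. A count was close if the larger value was at most 3/2 of the smaller, and a ratio if it stayed within its interval. The 152 do not measure stability, because some could not change, as told below. Against the chromosome mean alone, enriched tiles numbered 42 for DPF2, 100 for H3K14cr and 34 for both, with 26 and 41 narrow and 2 and 5 broad sites for DPF2 and H3K14cr. At a fold of at least 5 they numbered 2 for DPF2 (0.0532% of covered tiles in the genome), 3 for H3K14cr (0.101%) and 0 for both, with 2 and 3 narrow sites. In 500 bp tiles DPF2 had 2 enriched tiles (0.0405% in the genome), 2 narrow sites and 1 tile shared with H3K14cr. With the libraries of an antibody summed there were 26 DPF2 tiles (0.565% in the genome), 33 H3K14cr tiles (0.676%) and 17 shared tiles, with 27 narrow H3K14cr sites. With libraries thinned to the shallowest in a single random draw there were 11 DPF2 tiles (0.173% in the genome) against 9 H3K14cr tiles (0.311%). They gave 11 and 9 narrow sites and 5 shared tiles. In that draw the excess of H3K14cr tiles was absent from the windows and present over the genome.

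With one library left out, a call rests on the remaining library of that antibody. DPF2 tiles numbered 18 to 21 when a DPF2 library was left out, with 15 to 18 narrow and 0 to 3 middle sites. H3K14cr tiles numbered 30 to 32 when an H3K14cr library was left out, with 18 to 26 narrow and 3 to 6 middle sites. Over the genome the shares were then 0.317% and 0.496% of covered tiles for DPF2, and 0.573% and 0.672% for H3K14cr. Shared tiles numbered 8 to 12 and broad sites 0. Leaving out dark blocks, also added after the data were seen, could not change the counts, since by definition no enriched tile lies in one. With one library left out the window ratios stayed within their intervals in 16 of 16 cases and the 10 named tile ratios in 40 of 40. These ratios draw on the same reads as the intervals, so this is a weak check. Leaving out the highest tiles of the genome could not change the window levels, since the windows hold none.

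In the limma comparison, median-of-ratios scaling gave 4 tiles higher in DPF2 and 1 higher in H3K14cr (1127 and 667 of the 12488 tiles of the genome). Folds over the local mean in place of CPM gave 0 and 2 (387 and 1159 in the genome). edgeR's quasi-likelihood test gave 1 and 5 (495 and 3652 in the genome). Without one library, 0 to 1 tiles were higher in DPF2 and 1 to 7 in H3K14cr, where the single library left was taken to vary as the other antibody's pair does. With the replicate number as a block 1 tile was higher in DPF2 and 7 in H3K14cr (528 and 3762 in the genome). Same-numbered libraries did not deviate together (correlation -0.017), so the numbers do not pair them. The cause of each shift was not tested.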

Other observations

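Between the 2 dark stretches of the first chromosome 6 window lay a covered block, chr6:26750001-26760000, with 0.376 and 0.492 times the chromosome mean for DPF2 and 0.405 and 0.591 times for H3K14cr. Reads were found in 7 of its 10 tiles, so the dark ground is broken there in all 4 libraries.

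Among the 23 enriched tiles the DPF2 libraries lay furthest apart, taken as the quotient of their CPM, at chr6:28616001-28617000. This tile passed for H3K14cr alone and was named after its values were seen. It had 0.641 and 1.50 CPM for DPF2, with folds of 1.06 and 3.25, and 2.02 and 1.78 CPM for H3K14cr. With 25 pooled DPF2 reads, its ratio of 0.631 had an exact binomial 95% interval of 0.376 to 1.03.

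Across the 1099 covered tiles outside dark blocks, the rank correlation of log2 fold over the local mean was 0.655 between the DPF2 libraries and 0.769 between the H3K14cr libraries. Between antibodies it lay between 0.625 and 0.738. These are descriptions across tiles, which share libraries, neighbours and background, and tiles are not independent replicates.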
